A study of Mus musculus with 6 samples.

Results

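The osteoblast lineage genes followed here are Runx2, Sp7, Ibsp, Alpl, Spp1, Dlx5, Phex, Dmp1 and Msx2, 9 genes known for their roles in bone-forming cells and bone mineral. They were chosen by symbol, and a gene was read only through probe sets to which the platform annotation gives its symbol and no other. Of the 9 genes, 7 had such a probe set, with 12 probe sets in all, among 18193 genes read on the arrays. Runx2 and Spp1 had none and were not analysed here. Where a gene had several probe sets, the brightest over all arrays gave its value and the others served as checks.

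The irradiated group consisted of 3 cultures of mouse mesenchymal stem cells, commercial stromal cells able to form bone, cartilage or fat, each exposed for 2 h to a continuous far-infrared laser at 2.52 THz (118.8 µm). The control group consisted of 3 unexposed cultures, 1 next to each irradiated dish, at 26 to 27 °C like it. All 6 cultures carried the same additions, renewed 48 h before exposure: rosiglitazone at 1 µM, insulin at 5 µg/ml, isobutylmethylxanthine at 100 µM and dexamethasone at 1 µM. RNA was taken directly after the exposure, and each culture was hybridised to 1 Affymetrix mouse array, so each of the 3 experiments gave 1 pair. No strain or passage was given, and cultures without the additions or under a bone-forming medium were not analysed here.

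Osteoblasts arise from mesenchymal precursors. Runx2 and, after it, Sp7 (osterix) are the transcription factors required for their formation, and the homeodomain factors Dlx5 and Msx2 act around the same step in the skeleton. Maturing osteoblasts make alkaline phosphatase (Alpl), which breaks down the mineralisation inhibitor pyrophosphate, and acidic secreted phosphoproteins that bind mineral, among them bone sialoprotein (Ibsp), osteopontin (Spp1) and dentin matrix protein 1 (Dmp1). Phex is a membrane endopeptidase of osteoblasts and osteocytes whose loss causes phosphate wasting. Rosiglitazone activates PPARγ, and with insulin, isobutylmethylxanthine and dexamethasone it makes up a standard mixture for turning such cells into fat cells.

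None of the osteoblast lineage genes was called as different in irradiated cultures. With the pair as a block and Benjamini-Hochberg adjustment over 18193 genes, limma called 0 of the 7 and 0.00% of all genes, and all 7 had an adjusted p of 0.995. At an unadjusted p under 0.05 it gave 2 of the 7, Sp7 and Ibsp, both higher in irradiated cultures, and 1.42% of all genes in that direction. The mean difference, irradiated minus control, was above 0 in 7 of 7 genes, where 45.2% of all genes were above 0. Their median difference was 0.15 log2 units, beside -0.01 over all genes. Without experiment 2, 3 of the 7 were above 0. The largest was that of Ibsp, at 0.56 log2 units or 1.47-fold, and the other 6 lay between 0.04 (Dlx5) and 0.19 (Sp7).

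The values are log2 expression values made by the authors with RMA, and array medians lay between 5.01 and 5.04. Probes differ in how strongly they bind, so a level is compared between arrays for 1 probe set, and is set against the median gene only to show how bright the probe set is. The median gene had a level of 6.46. Ibsp, Alpl and Dlx5 lay at or above it, Sp7 and Msx2 just under it at 6.17 and 5.95, and Dmp1 and Phex were dim at 4.31 and 3.11. Changes of dim probe sets tend to be understated by RMA. Of the surface markers of mesenchymal stromal cells 8 of 9 measured reached the median level, all but Thy1 at 3.875, and so did 7 of 7 fat-cell and 9 of 9 macrophage markers. The control array of experiment 3 stood apart in RNA quality, with a difference between 3′ and 5′ control probe sets of 0.68 for actin, against 0.50 to 0.57 on the other arrays, and of 0.11 for Gapdh, against -0.10 to -0.08.

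**Figure D1:**
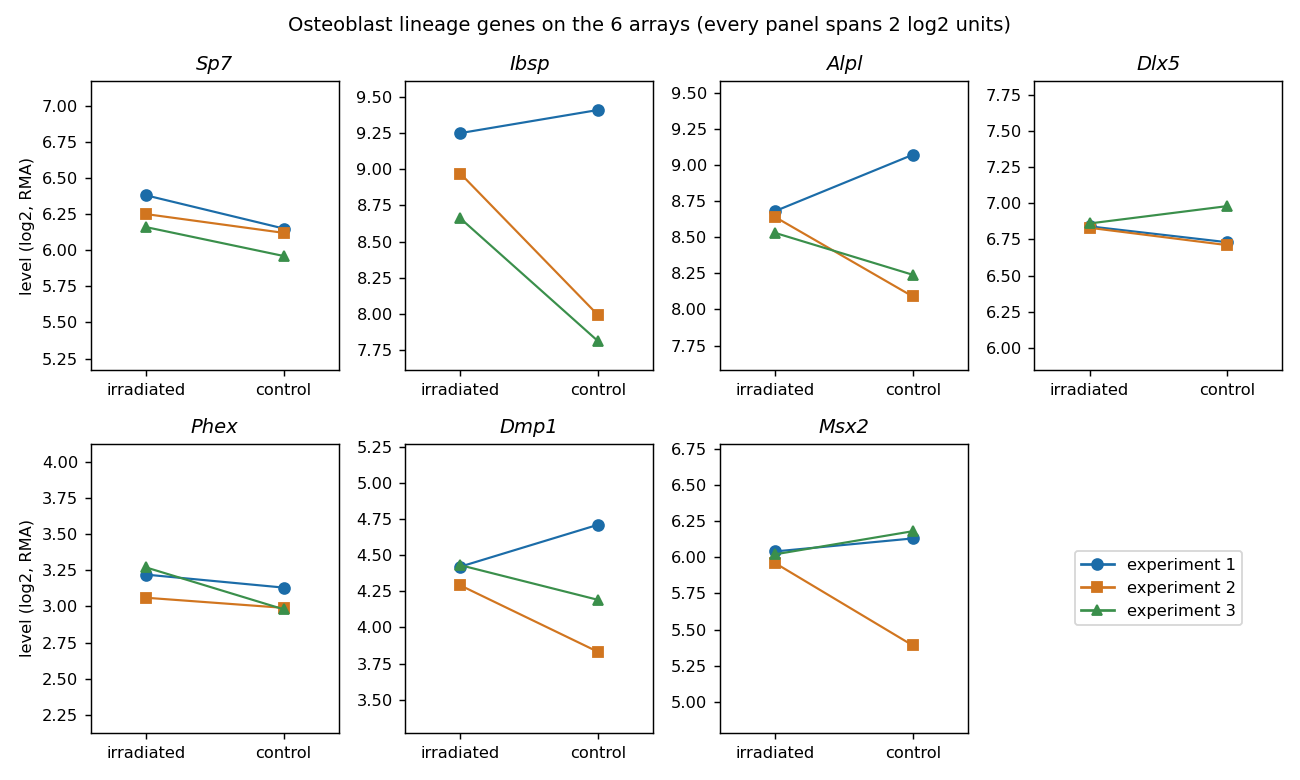
Level of each of the 7 measured osteoblast lineage genes (y axis, log2 RMA value, 2 units in every panel) in irradiated and control cultures (x axis), with 1 line per experiment. The control points of Ibsp, Alpl, Dmp1 and Msx2 are spread out while their irradiated points lie closer together, and only Sp7 has all 3 irradiated points above all 3 control points.

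Among the transcription factors, Sp7 is the zinc finger factor without which no osteoblasts form. Its level was 6.38, 6.25 and 6.16 in the irradiated cultures of experiments 1 to 3, and 6.15, 6.12 and 5.96 in their controls. All 3 irradiated values lay above all 3 control values, by a gap of 0.01 between irradiated culture 3 and control 1. Sp7 was the 1 gene of the 7 whose groups did not overlap, and 2.90% of all genes had irradiated values wholly above the controls. The difference was 0.23, 0.13 and 0.20 log2 units, with a mean of 0.19 ± 0.051 (SD, n = 3 pairs). This is 1.14-fold with a 95% interval of 1.00 to 1.29, and limma's unadjusted p was 0.0487. For the same probe set limma over all probe sets gave an interval of 0.989 to 1.31 and a p of 0.0660. Without the block limma gave 0.0642, and an ordinary paired test without moderation gave 0.0243.

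Dlx5 is a homeodomain activator expressed early in the lineage. It stood at 6.84, 6.83 and 6.86 in the irradiated cultures and at 6.73, 6.71 and 6.98 in the controls. The irradiated arrays were within 0.03 of each other, inside the span of the controls, and control 3 was the highest of the 6 arrays. The mean difference of 0.04 ± 0.14 log2 units (SD, n = 3 pairs) did not hold its sign, with 0.11, 0.12 and -0.12 in the 3 experiments.

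Msx2, a related homeodomain factor known in skull formation, stood at 6.04, 5.96 and 6.02 in the irradiated cultures and at 6.13, 5.39 and 6.18 in the controls. Control 2 was low and the other 5 arrays lay between 5.96 and 6.18. The difference was 0.57 in experiment 2, against -0.09 and -0.16 in experiments 1 and 3, and the mean of 0.11 ± 0.40 (SD, n = 3 pairs) became -0.125 without experiment 2. The second, dim probe set of Msx2 (level 3.18) did not share that: its differences were 0, 0.04 and 0.30.

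Ibsp encodes bone sialoprotein, an acidic matrix protein that promotes the first mineral crystals. Its level was 9.25, 8.97 and 8.66 in the irradiated cultures of experiments 1 to 3, and 9.41, 7.99 and 7.81 in their controls. Controls 2 and 3 lay below every irradiated culture, but control 1 was the highest of the 6 arrays, so the groups overlapped. The difference was -0.16, 0.98 and 0.85 log2 units, with a mean of 0.56 ± 0.62 (SD, n = 3 pairs). This is 1.47-fold with a 95% interval of 1.04 to 2.09. The unadjusted p of Ibsp was 0.0354 in limma, and 0.186 in limma without the pairs as a block. It depended on the method: an ordinary paired test without moderation gave 0.262, and limma after centring on housekeeping genes gave 0.000561. After that centring limma's adjusted p for Ibsp was still 0.995. The moderated standard error was 0.155 there, against 0.36 in the ordinary paired test of the uncentred values.

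The second probe set of Ibsp had the same order of arrays within the controls. It read 7.57, 7.65 and 7.27 in the irradiated cultures and 8.06, 6.47 and 6.40 in the controls. Its differences were -0.49, 1.18 and 0.87, with a mean of 0.52 ± 0.89 (SD, n = 3 pairs). Leaving out experiment 1 moved the mean of the brighter probe set to 0.915 log2 units, and leaving out experiment 2 or 3 moved it to 0.345 or 0.41.

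Alpl encodes the tissue-nonspecific alkaline phosphatase, the enzyme most often stained to show osteoblasts. It read 8.68, 8.64 and 8.53 in the irradiated cultures and 9.07, 8.09 and 8.24 in the controls. As with Ibsp, control 1 was the highest array and controls 2 and 3 were the lowest, on either side of a narrow irradiated group. The difference was -0.39, 0.55 and 0.29, a mean of 0.15 ± 0.49 log2 units (SD, n = 3 pairs) with a 95% interval of 0.835- to 1.47-fold. Without experiment 2 the mean was -0.05.

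Dmp1, a phosphoprotein of late osteoblasts and osteocytes that lies near Ibsp and Spp1 on chromosome 5, read 4.42, 4.29 and 4.43 in the irradiated cultures and 4.71, 3.83 and 4.19 in the controls. Control 1 was again the highest array and controls 2 and 3 the lowest. The difference was -0.29, 0.46 and 0.24, a mean of 0.14 ± 0.39 log2 units (SD, n = 3 pairs), and -0.025 without experiment 2. Both other probe sets of Dmp1, at levels of 2.96 and 2.93, had the same signs, with -0.13, 0.16 and 0.13 for the brighter and -0.10, 0.27 and 0.23 for the dimmer. All 3 are dim, and the first shares its GenBank accession in the annotation with the brighter of these.

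Phex, the endopeptidase tied to phosphate balance, was dim. It read 3.22, 3.06 and 3.27 in the irradiated cultures and 3.13, 2.99 and 2.98 in the controls. Each irradiated culture lay above its own control, by 0.09, 0.07 and 0.29, but the groups overlapped, since control 1 exceeded irradiated culture 2. The mean was 0.15 ± 0.12 log2 units (SD, n = 3 pairs), and the other probe set, at a level of 2.73, stood at 0.0067 with -0.19, 0.19 and 0.02. Sp7 and Phex were the 2 of 7 genes above 0 in all 3 experiments, a pattern seen in 8.23% of all genes.

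**Figure D2:**
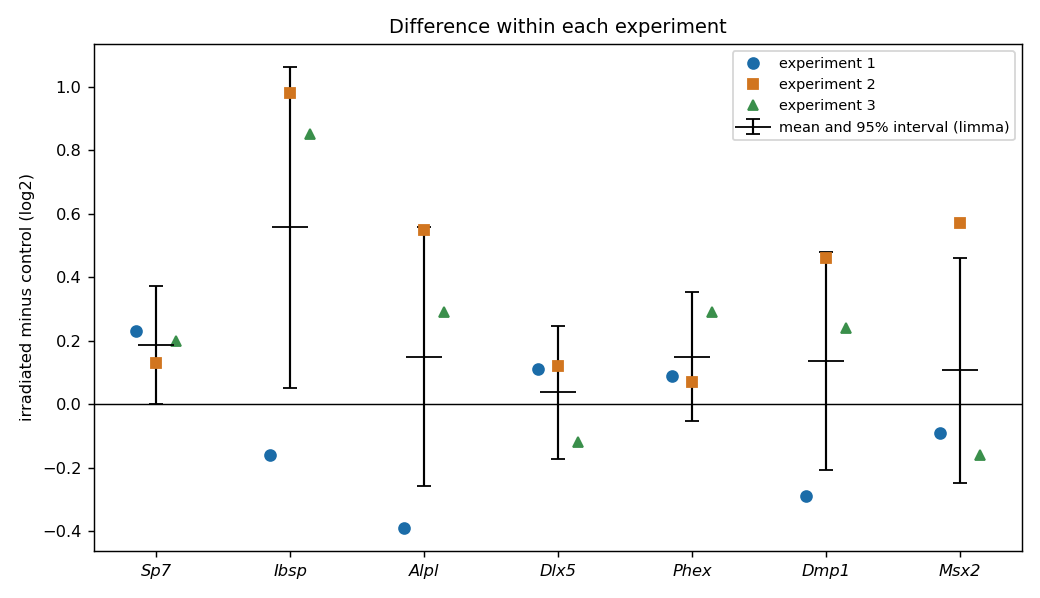
Irradiated minus control (y axis, log2 units) for each measured gene (x axis), with 1 symbol per experiment, the mean as a horizontal bar and limma's 95% confidence interval as the vertical line. Experiment 2 is above 0 for all 7 genes, experiment 1 is below 0 for Ibsp, Alpl, Dmp1 and Msx2, and only the intervals of Sp7 and Ibsp stay above 0.

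For 6 of the 7 genes, all but Ibsp, both ends of the 95% confidence interval were under a 1.5-fold change, as for 98.3% of all genes. Each interval covers 1 gene and is not adjusted for how many were tested. The intervals rest on limma's moderated standard errors, which draw on the spread of all genes. For Ibsp, Alpl, Dmp1 and Msx2 these were 0.21, 0.17, 0.14 and 0.15 log2 units. Those of an ordinary paired test were larger, at 0.36, 0.28, 0.22 and 0.23. For Sp7, Dlx5 and Phex the ordinary ones were smaller. The bound therefore depends on the moderation. The 3 pairs limit the precision, and they bound changes of the RMA values after 2 h only.

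Of the 7 genes 3, Ibsp, Alpl and Dmp1, were below 0 in experiment 1 and above 0 in experiments 2 and 3, beside 14.3% of all genes. Control 1 was the highest of the 6 arrays for the same 3 of 7, beside 22.0% of all genes, which goes with a difference below 0 in experiment 1. The 7 genes were listed with earlier results of these data known, so these counts are a description. By experiment, 3, 7 and 5 of the 7 genes were above 0, beside 40.9%, 47.0% and 48.9% of all genes. The median difference of the 7 was -0.09, 0.46 and 0.24 log2 units in experiments 1 to 3, and that of all genes -0.03, -0.01 and 0. On the level of probe sets, 7 of the 12 had the signs of Ibsp, beside 13.6% of all probe sets, although probe sets of 1 gene read the same transcript.

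**Figure D3:**
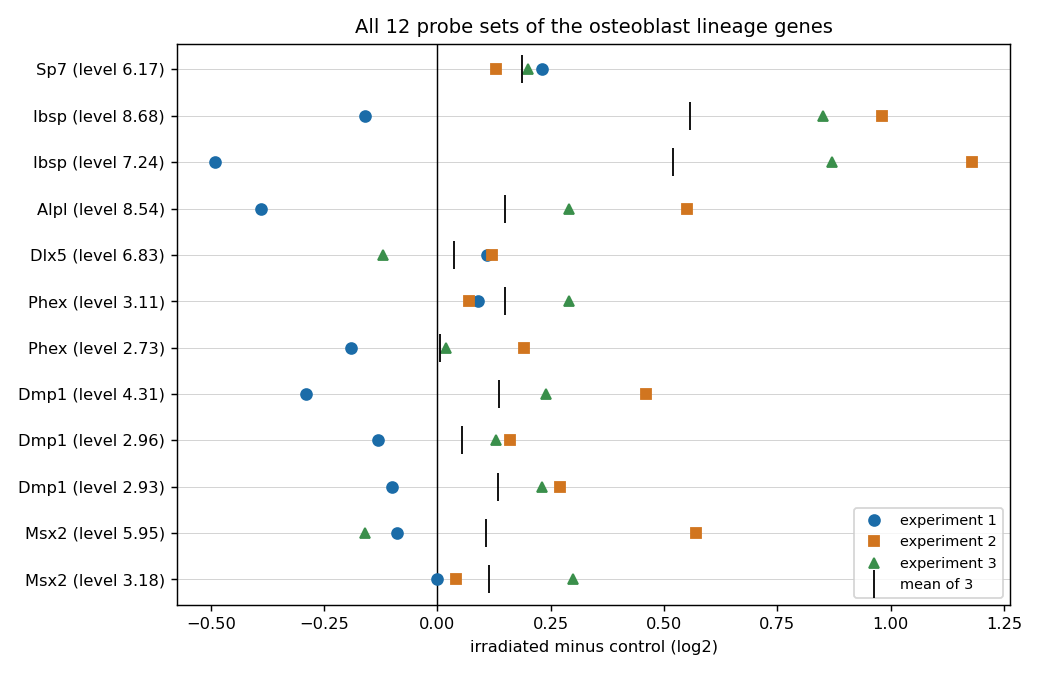
Irradiated minus control (x axis, log2 units) for all 12 probe sets of the osteoblast lineage genes (y axis, with the mean level over the 6 arrays), with 1 symbol per experiment and a tick at the mean. Both probe sets of Ibsp and all 3 of Dmp1 have experiment 1 below 0 and experiments 2 and 3 above it, whereas the probe sets of Msx2 and of Phex differ from each other.

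For 5 of the 7 osteoblast lineage genes the controls were spread more widely between experiments than the irradiated cultures. The range over the 3 irradiated arrays was 0.59 for Ibsp, 0.15 for Alpl, 0.14 for Dmp1, 0.08 for Msx2 and 0.03 for Dlx5. Over the 3 control arrays it was 1.60, 0.98, 0.88, 0.79 and 0.27 log2 units for the same genes. Sp7 (0.22 in irradiated and 0.19 in control cultures) and Phex (0.21 and 0.15) had the opposite order. The control range was the wider in 5 of 7 genes and in 53.6% of all genes. The median range of the 7 was 0.15 in irradiated and 0.79 in control cultures, beside 0.18 and 0.20 over all genes. Wider controls were not particular to these genes. Among lists described below, they were seen in 5 of 6 genes of the contractile list, with median ranges of 0.165 and 0.68. That list also holds the matrix gene Postn. In 9 of 12 bone matrix genes the median ranges were 0.27 and 0.485. Of 9 macrophage markers 0 had the wider control range, with medians of 0.49 and 0.26. With 3 arrays per group this difference in spread was not tested.

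**Figure D4:**
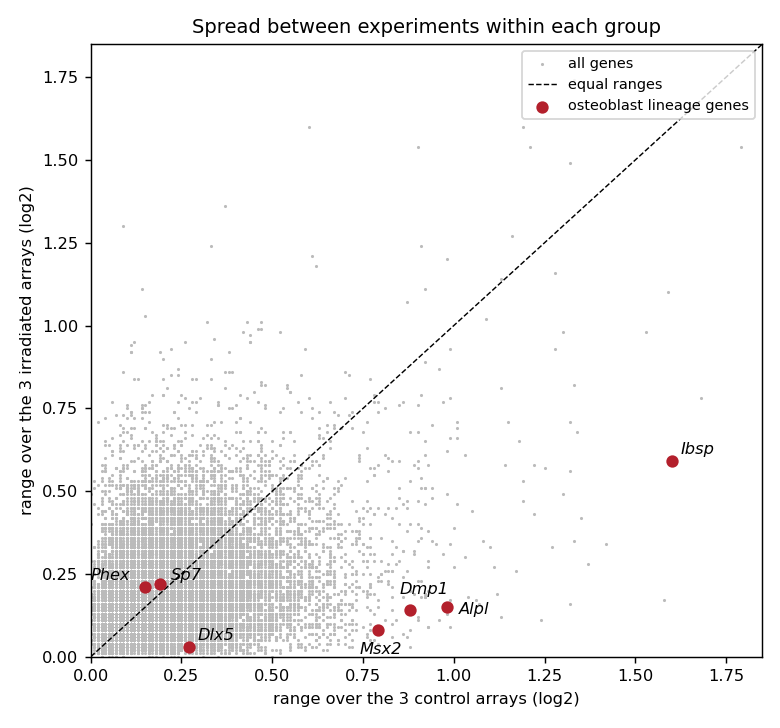
Range over the 3 irradiated arrays (y axis, log2 units) against the range over the 3 control arrays (x axis) for the 7 osteoblast lineage genes (red) and all genes (grey), with 1 gene outside the axes. Ibsp, Alpl, Dmp1, Msx2 and Dlx5 lie below the line of equal ranges, and Sp7 and Phex just above it.

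The genomic sequence before the start of Ibsp, Alpl and Dmp1 is shown because these 3 genes had the same signs in every experiment. RefSeq's promoter table (GRCm38.p6) matched 7 of the 9 genes, with 10 windows. Capitals mark ACCACA, a core of the sites bound by Runx factors, TAATT, a core bound by homeodomain factors such as Dlx5 and Msx2, and GGGCGG, the GC box of Sp factors, each searched on both strands in the 250 bases before the start.
Ibsp, chr5:104299037-104299286, plus strand: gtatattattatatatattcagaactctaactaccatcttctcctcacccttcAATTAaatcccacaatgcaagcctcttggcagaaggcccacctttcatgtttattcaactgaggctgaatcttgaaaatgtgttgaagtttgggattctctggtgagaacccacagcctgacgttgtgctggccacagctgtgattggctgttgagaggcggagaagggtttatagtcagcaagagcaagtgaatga
Alpl, upstream start, chr4:137796385-137796634, minus strand: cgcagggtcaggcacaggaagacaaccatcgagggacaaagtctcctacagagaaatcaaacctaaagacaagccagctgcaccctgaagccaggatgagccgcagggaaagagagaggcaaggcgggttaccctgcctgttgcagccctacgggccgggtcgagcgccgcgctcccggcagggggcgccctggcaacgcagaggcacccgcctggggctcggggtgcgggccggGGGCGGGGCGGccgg
Dmp1, upstream start, chr5:104197325-104197574, plus strand: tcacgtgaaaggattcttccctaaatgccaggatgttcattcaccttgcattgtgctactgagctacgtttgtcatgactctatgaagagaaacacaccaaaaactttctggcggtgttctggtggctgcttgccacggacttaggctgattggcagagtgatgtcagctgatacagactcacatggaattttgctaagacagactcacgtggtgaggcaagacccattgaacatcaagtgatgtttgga
Dmp1, downstream start, chr5:104202367-104202616, plus strand: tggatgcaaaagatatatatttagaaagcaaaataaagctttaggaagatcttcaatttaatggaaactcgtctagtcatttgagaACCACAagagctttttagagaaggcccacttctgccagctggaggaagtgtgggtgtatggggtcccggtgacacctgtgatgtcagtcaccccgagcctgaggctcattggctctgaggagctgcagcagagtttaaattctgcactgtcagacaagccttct
Ibsp held 1 TAATT on the minus strand, beginning 197 bases before the start. Alpl held a pair of overlapping GC boxes, beginning 15 and 10 bases before its upstream start, and none of the 3 motifs before its downstream start, which is not printed. Dmp1 held 1 ACCACA, 164 bases before its downstream start, and none of the 3 motifs before its upstream start. Over all 32851 windows of the same length ACCACA occurred in 14.0%, TAATT in 25.0% and GGGCGG in 32.7%. The 3 genes thus shared none of these motifs in these windows, and a match is a run of letters, not a measured binding site.

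The genes whose 3 differences lay nearest to those of each member were sought among 9099 genes of median level or brighter, by the root-mean-square distance over the 3 experiments. Nearest to Ibsp were the actin-binding smooth muscle gene Tagln (distance 0.222; -0.30, 0.69 and 0.64), the matrix gene Postn, or periostin (0.253; -0.52, 0.83 and 1.05), and the protease inhibitor Serpinb2 (0.255; -0.07, 1.02 and 0.42). Notum, a secreted enzyme that inactivates Wnt proteins, was nearest to Alpl (0.0770) and also to Dmp1 (0.0283), with -0.27, 0.50 and 0.26. Next came Pdlim4 (0.0876) and Tiam2 (0.0898) for Alpl, and Angpt4 and Cpxm1 (both 0.0420) for Dmp1. Nearest to Msx2 were B3gnt9 (0.0265), the Wnt ligand Wnt5a (0.0424) and Calhm2 (0.0574). The 4 members searched were those whose values spanned over 0.5 log2 units, and with 3 differences per gene near matches are easily found among so many genes.

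Other genes of bone formation were read from lists. No gene of any list passed in limma with Benjamini-Hochberg adjustment over all genes, in either direction. Over all genes 45.2% had a mean above 0, which is the share to set beside the count of every list. In the bone matrix list 12 of 12 measured genes had a mean above 0, with a median of 0.10 log2 units beside -0.01 over all genes. By experiment, 3, 11 and 6 of the 12 were above 0. Their medians by experiment were -0.095, 0.385 and -0.005, furthest from 0 in experiment 2. Lumican (Lum), a collagen-binding proteoglycan, differed by 0.38 (SE 0.16; -0.06, 0.82 and 0.37), Col1a1, the main chain of bone collagen, by 0.27 (SE 0.16; -0.13, 0.72 and 0.22) and fibromodulin (Fmod) by 0.19 (SE 0.17; -0.17, 0.73 and 0.01). Col1a2, the partner chain, stood at 0.09 (SE 0.10) and Sparc, or osteonectin, at 0.04 (SE 0.084). The osteocalcin genes Bglap, Bglap2 and Bglap3 had no probe set with 1 symbol.

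Of 15 further bone regulators 11 were above 0, with a median of 0.04. Dlx3 stood at 0.12 (SE 0.081), Dlx6, which lies beside Dlx5 in the genome, at 0.09 (SE 0.11) and Twist1, an inhibitor of Runx2, at 0.08 (SE 0.15; -0.01, 0.53 and -0.28). Atf4, which drives late osteoblast genes, was at -0.02 (SE 0.080). Among 8 genes of phosphate and pyrophosphate handling 6 were above 0. Ahsg, the circulating mineral-binding protein fetuin-A, differed by 0.32 (SE 0.083; 0.21, 0.31 and 0.43; level 4.58), Fgf23, the phosphate hormone of osteocytes, by -0.19 (SE 0.078; level 4.57) and the pyrophosphate transporter Ank by 0.07 (SE 0.080). Both Ahsg and Fgf23 were dim, and their unadjusted p values were 0.00742 and 0.0487 in limma.

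Of 13 genes for hormone receptors and signals 7 were above 0 and 6 below. Tnfrsf11b, the decoy receptor osteoprotegerin, was dim at a level of 4.81 and stood at 0.45 (SE 0.26; 1.06, 0.73 and -0.45). Its ligand Tnfsf11, or RANKL, stood at -0.22 (SE 0.13; -0.01, -0.04 and -0.60). The BMP antagonist Nog, also dim at 4.39, stood at -0.28 (SE 0.16), with -0.81, -0.02 and 0 in the 3 experiments. Esr1, the oestrogen receptor, named after its value was seen, stood at -0.21 (SE 0.086) and was the list's only gene with an unadjusted p under 0.05 in limma.

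Markers of other cell types moved with the pairs as well. In experiment 2, where all 7 osteoblast lineage genes were above 0, 0 of 7 fat-cell markers were, with a median of -0.55 log2 units, against 0.09 and 0.01 in experiments 1 and 3. Their mean level ran from 11.5 to 11.8 in irradiated and from 11.6 to 11.9 in control cultures. Over the 3 experiments Pparg, the regulator of fat-cell formation, stood at -0.19 (SE 0.13), the glucose transporter Slc2a4 at -0.19 (SE 0.14) and Cebpa at -0.18 (SE 0.14). The 6 genes of the contractile list, which includes the matrix gene Postn, had medians of -0.305, 0.555 and 0.40, with 0, 6 and 5 genes above 0. Their mean level ran from 8.02 to 8.13 in irradiated and from 7.565 to 8.33 in control cultures, highest in control 1. The mean level of the 7 osteoblast lineage genes ran from 6.28 to 6.40 in irradiated and from 5.87 to 6.48 in control cultures, also highest in control 1. In the contractile list Postn, a matrix gene and not a contractile one, was at 0.45 (SE 0.28). Tagln was at 0.34 (SE 0.19) and Acta2, smooth muscle actin, at 0.23 (SE 0.12). The part of these cells in the values of Ibsp, Alpl and Dmp1 was not tested, and in RNA from whole cultures fewer cells of a type and less RNA per cell cannot be told apart.

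Macrophage and osteoclast markers were read because osteoclasts, the bone-resorbing cells, share the macrophage lineage. The 9 macrophage markers had medians of -0.15, 0.06 and 0.12 log2 units in the 3 experiments, with mean levels of 11.0 to 11.6 in irradiated and 11.2 to 11.4 in control cultures. Cd14 stood at 0.21 (SE 0.18), Itgam at 0.20 (SE 0.15) and Fcer1g at -0.05 (SE 0.092). Of the 8 osteoclast markers 5 reached the median level and 6 had a mean above 0, with medians of -0.09, 0.18 and 0.25 and mean levels of 6.40 to 6.48 in irradiated and 6.20 to 6.46 in control cultures. Calcr, the calcitonin receptor and a defining osteoclast gene, was dim at 2.36 and stood at 0.23 (SE 0.078), Atp6v0d2 at 0.21 (SE 0.13) and Acp5 (TRAP) at 0.19 (SE 0.16). Calcr was the only osteoclast marker with an unadjusted p under 0.05 in limma, at 0.0213. Chondrocyte markers had medians of 0.03, 0.20 and -0.22, with Acan at 0.15 (SE 0.084), Sox5 at -0.12 (SE 0.085) and Comp at -0.08 (SE 0.16), and 1 of 7 reached the median level. Of the 9 stromal surface markers 5 had a mean above 0 and 4 below, with a median of 0.01 and medians by experiment of 0.03, 0.09 and 0. The 3 largest differences were those of Nt5e at 0.21 (SE 0.081), Itgb1 at 0.18 (SE 0.087) and Pdgfrb at 0.13 (SE 0.087). Nt5e was the only stromal surface marker with an unadjusted p under 0.05 in limma, at 0.0352. The 7 housekeeping genes had medians of 0, -0.08 and 0.02, with Ywhaz at -0.05 (SE 0.077), Polr2a at 0.04 (SE 0.10) and Hprt at -0.04 (SE 0.083).

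**Figure D5:**
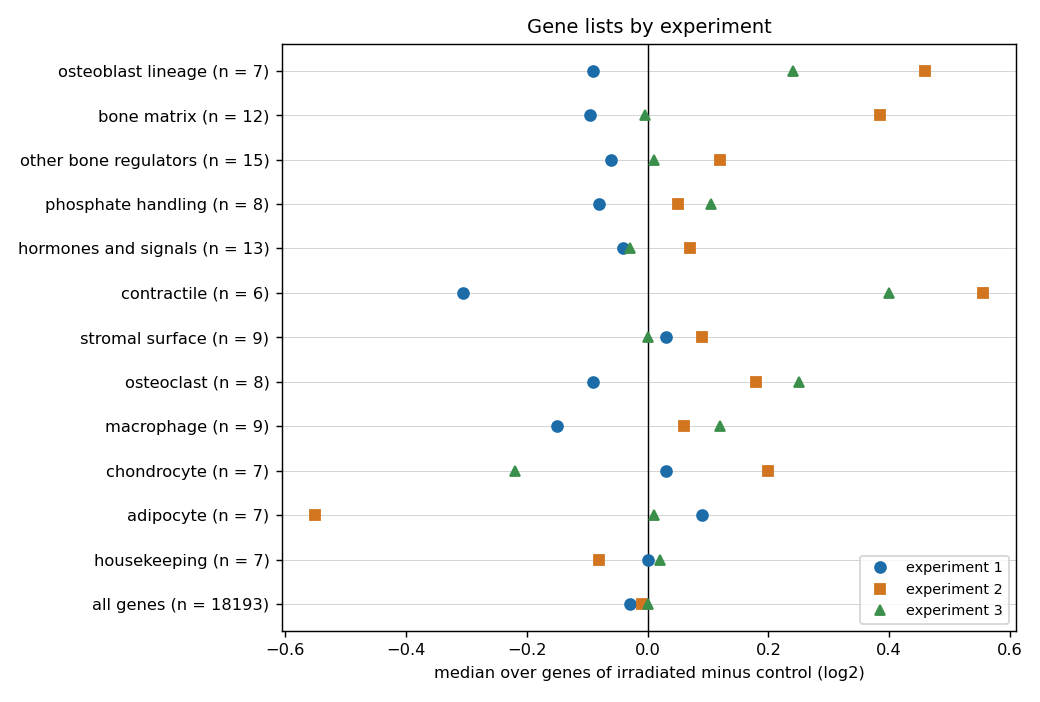
Median over the measured genes of each list (y axis, with their number) of irradiated minus control (x axis, log2 units), with 1 symbol per experiment. The osteoblast lineage, all 4 other bone lists and the contractile, osteoclast and macrophage lists have experiment 2 on the right and experiment 1 on the left of 0, the fat-cell list has experiment 2 at -0.55, and all genes lie within 0.03 of 0.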

How the data were processed

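The file holds log2 expression values per probe set, made by the authors with RMA (background correction, quantile normalization and probe set summary). RMA, affy and limma are named in the submitters' processing notes, without versions. No label gives the log base, and the range of 1.73 to 14.53 was read as log2. Quantile normalization hides a change common to all transcripts. Array dates and detection calls were not used here, so no batch beyond the experiment was tested.

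Of 45101 probe sets 64 are array controls, and all other 45037 entered the test, dim ones included. The platform annotation gives 1 symbol to 34945 of them, several to 932 and none to 9160. Of those with 1 symbol, 34741 matched a current gene table by Entrez identifier. For each of 18193 genes the probe set with the highest mean was used.

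The test was limma 3.58.1 in R 4.3.3 (lmFit, eBayes), irradiated minus control with the experiment as a block, Benjamini-Hochberg adjusted p under 0.05 over all genes. The design text sets each irradiated culture beside its own control, which gives the pairs. As a check, the deviations of the 2 arrays of a pair from the means of their groups were correlated, which gave 0.0873, -0.0651 and -0.0292 over probe sets in experiments 1 to 3. Arrays of different pairs reached 0.113 (irradiated 2 with control 3) and 0.083 (irradiated 3 with control 2), so the pairing rests on the design text and not on this check. SDs are over the 3 differences, standard errors and 95% intervals are moderated. The scripts were tested on simulated data. The osteoblast lineage genes and all lists were chosen with earlier results of these data known. The text names all 7 measured genes, up to 3 genes per list with the largest absolute mean difference, 8 bone genes in any case, and the 3 nearest genes of each member spanning over 0.5 log2 units. Alternatives were other block, moderation, filter, scaling and probe set choices and leaving out each experiment.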

Additional observations from a re-analysis of the deposited data

How the results depend on the processing

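No osteoblast lineage gene was called under the main test or any of the 11 alternatives. Without a replicate block limma called 0 genes, 0 probe sets and 0 of the 7 genes too, so the block changed no call. At an unadjusted p under 0.05 limma without the block gave 0 of the 7 and 649 of 18193 genes, against 2 and 603 with it. An ordinary paired test without moderation called 8 genes and 12 probe sets, none of them an osteoblast lineage gene. Its smallest adjusted p over genes was 1.9e-25, which 3 pairs give only where the 3 differences are almost equal. The values carry 2 decimals, so rounding can make differences equal, and these calls are not read as effects. The count of osteoblast lineage genes above 0, an alternative added after the data were seen, was 3 of 3 after a filter at the median level, which removes the other 4, and 3 to 7 of 7 with each experiment left out. With each experiment left out the difference ran from -0.05 to 0.42 log2 units for Alpl, from -0.005 to 0.115 for Dlx5, from -0.025 to 0.35 for Dmp1 and from -0.125 to 0.24 for Msx2, each below 0 only without experiment 2. Ibsp (0.345 to 0.915), Sp7 (0.165 to 0.215) and Phex (0.08 to 0.19) stayed above 0. Without experiment 3, whose control stood apart in RNA quality, 7 of 7 were above 0. At an unadjusted p under 0.05 limma without experiment 3 gave 0 of 7 and 495 of 18193 genes. It gave 3 of 7 and 619 genes without experiment 1, and 0 of 7 and 518 genes without experiment 2. The part of RNA quality in the differences was not tested. Phex stood at 0.0067 log2 units when its probe set with the largest spread was read. An array gives no depth, and RMA tends to understate changes of dim probe sets such as those of Phex and Dmp1.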
